A study of Homo sapiens with 6 samples.

Results

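The genes examined were those for the protein parts of the mitochondrial ribosome, taken as every row of the deposited tables whose symbol was MRPL or MRPS followed by a number and at most 1 letter from A to C, which left out pseudogenes and antisense genes. This gave 78 of the 28008 symbols in the count table, 49 with an MRPL and 29 with an MRPS symbol, and all 78 were also in the TPM table. RNA-seq had been done on H660 (NCI-H660) cells, a line of neuroendocrine prostate cancer (NEPC), and 6 libraries were compared. The 3 DOX-negative libraries came from cells given 0.1% DMSO as vehicle, and the 3 DOX-positive libraries from cells given doxycycline (DOX) at 500 ng/ml, with RNA taken from cultures in triplicate. Both groups carried the pLKO-tet-puro vector with an shRNA against MUC1 and had been selected in puromycin, so that DOX turned on the shRNA in the treated cells only. No DOX-treated cells without this shRNA were among the samples analysed, and an effect of the drug and an effect of MUC1-C silencing cannot be told apart here. The cells were in DOX for 7 days.

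Mitochondrial ribosomes translate the few messages encoded by mitochondrial DNA, all of them for subunits of the oxidative phosphorylation complexes. Their ribosomal RNAs are made in the organelle, whereas every one of their proteins is encoded in the nucleus, translated in the cytosol and imported. Some of these proteins descend from bacterial ribosomal proteins, and others are particular to mitochondria or have diverged far. Tetracyclines, DOX among them, bind the small subunit of bacterial ribosomes and also inhibit translation in mitochondria. The question was whether the mRNAs of the mitochondrial ribosomal proteins moved together, up or down, in the cells given DOX.

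No common shift was measured. None of the 77 genes tested was called in edgeR at an adjusted p under 0.05, beside 4.87% of the 17026 genes tested in all (2.91% higher and 1.96% lower). The log2 fold changes of DOX-positive over DOX-negative were centred on no change, with a median of -0.0032 over the 77 genes and 0.00034 over all genes tested, and 38 were positive and 39 negative. The split moved with the libraries used. Without DOX-negative replicate 3, 27 of the 77 were positive, with a median of -0.031 against -0.00087 over all genes. Without DOX-negative replicate 1, 44 were positive, with a median of 0.015 against -0.0015. At an unadjusted p under 0.05 there were 5 of 77 (6.49%), against 21.1% of all genes. That count depended on 1 library and on the fit: it was 14 of 77 (18.2%, against 24% of all genes) without DOX-positive replicate 2, and 12 (15.6%, against 28.6%) with offsets for GC content and gene length. The genes nearest to a call were lower with DOX: MRPL42, MRPS25 and MRPL17, with adjusted p values of 0.0555, 0.058 and 0.0808 in the edgeR quasi-likelihood test. DESeq2 placed these 3 past the threshold, where 3.74% of its genes were called lower. With limma-voom 0 of the 77 were called, and no fit tried called any of the 77 higher.

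The sequences just before the starts of 6 genes are shown first, because 3 of them had the smallest adjusted p values, and the other 3 held the largest positive fold changes. Each is the 150 bases before the RefSeq start on GRCh38.p14, printed 5′ to 3′ on the gene's own strand, with matches to the motifs described next in capitals. MRPL42 lies at chr12:93467364-93467513 on the plus strand, MRPS25 at chr3:15065316-15065465 on the minus strand and MRPL17 at chr11:6683341-6683490 on the minus strand for the stretches shown. Those of MRPL52, MRPL46 and MRPS11 are chr14:22829737-22829886 (plus), chr15:88467389-88467538 (minus) and chr15:88467558-88467707 (plus).
MRPL42: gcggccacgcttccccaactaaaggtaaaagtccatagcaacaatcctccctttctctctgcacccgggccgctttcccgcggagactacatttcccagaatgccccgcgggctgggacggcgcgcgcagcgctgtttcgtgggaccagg
MRPS25: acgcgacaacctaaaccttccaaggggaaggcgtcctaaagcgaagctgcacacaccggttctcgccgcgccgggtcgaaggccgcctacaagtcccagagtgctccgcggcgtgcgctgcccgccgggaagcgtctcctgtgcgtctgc
MRPL17: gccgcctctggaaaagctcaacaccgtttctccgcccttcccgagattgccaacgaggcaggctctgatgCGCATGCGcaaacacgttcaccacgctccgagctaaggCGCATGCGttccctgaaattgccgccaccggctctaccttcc
MRPL52: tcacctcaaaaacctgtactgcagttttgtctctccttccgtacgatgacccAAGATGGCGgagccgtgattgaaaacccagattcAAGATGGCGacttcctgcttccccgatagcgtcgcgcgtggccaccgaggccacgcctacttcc
MRPL46: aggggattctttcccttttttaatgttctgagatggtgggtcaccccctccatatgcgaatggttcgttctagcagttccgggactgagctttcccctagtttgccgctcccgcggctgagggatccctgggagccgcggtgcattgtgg
MRPS11: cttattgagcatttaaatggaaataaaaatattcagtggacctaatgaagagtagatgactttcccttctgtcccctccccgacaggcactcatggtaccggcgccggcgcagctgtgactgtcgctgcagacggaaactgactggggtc

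The motifs searched on both strands were the core of the NRF1 site (CGCATGCG), a site of the ETS family to which GABP belongs (CCGGAAGT), the YY1 core (AAGATGGCG) and the E-box (CACGTG). NRF1, GABP and YY1 are factors long tied to nuclear genes for mitochondrial proteins, and the E-box is bound by MYC among others. The windows searched ran from 250 bases before to 50 after each RefSeq start, and 69 of the 77 tested genes had one, with a gene counted once if any of its starts held the motif. The YY1 core was in 12 of the 69 (17.4%), compared with 4.12% of the 12026 tested genes with a window, and the ETS site was also in 12 (17.4%, against 8.58%). The NRF1 core was in 3 (4.35%, against 4.01%) and the E-box in 10 (14.5%, against 12.1%). The capitals of MRPL17 are 2 copies of the NRF1 core, and those of MRPL52 are 2 copies of the YY1 core. MRPL52 had an ETS site as well, in its window but outside the stretch shown. The windows of MRPL42 and MRPL46 also held the YY1 core, outside the stretch shown, and those of MRPS25 and MRPS11 held none of the 4 motifs. The median log2 fold change was -0.03 over the 24 genes with an NRF1, ETS or YY1 motif and 0.01 over the other 45, and the YY1 group held both MRPL42, the lowest of the 77, and MRPL52, the highest. MRPL52 was in the ETS group too.

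**Figure D1:**
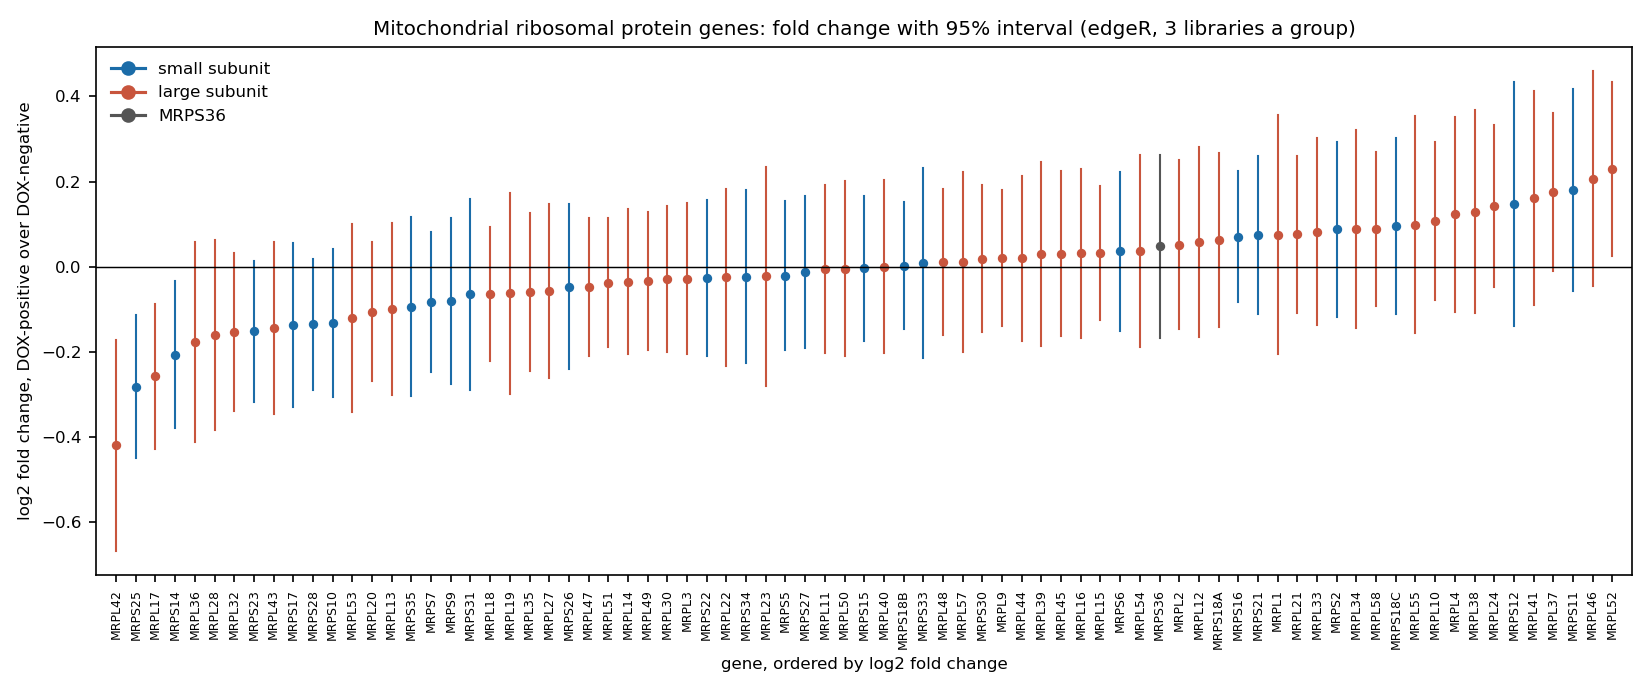
Log2 fold change of DOX-positive over DOX-negative (vertical axis) for the 77 tested genes in order of fold change (horizontal axis), with 95% intervals as lines from the edgeR fit over 3 libraries a group, coloured by ribosomal subunit. The points run from -0.42 for MRPL42 to 0.23 for MRPL52, with 4 intervals wholly below 0 and 1 wholly above.

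The 95% intervals set bounds on the size of change, and changes within those bounds were not excluded. The 95% interval of the fold change, on the log2 scale, lay within 0.5 either side of 0 for 76 of the 77 genes (98.7%), against 65.3% of all genes tested. The exception was MRPL42, whose interval reached down to -0.67, and the highest upper bound of any member was 0.46, for MRPL46. The median absolute log2 fold change was 0.065 over the members and 0.13 over all genes. The members tested had means of 473 to 13925.5 counts per library, and their standard errors (SE) ran from 0.069 to 0.13. The median SE was 0.089 over the members and 0.105 over all genes. Of the 17026 genes tested, 14587 had a mean of at least 50 counts. Low counts widen intervals, and the members were not compared with genes of like counts. The groups did not overlap for 14 of the 77 genes (18.2%), beside 28.1% of all genes. DOX-positive libraries were the lower in 12 (15.6%, against 13.3% of all genes) and the higher in 2 (2.60%, against 14.8%).

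As a fraction of the library the family was at values that overlapped between the groups. The 78 genes together took 0.2998% ± 0.00825 of all counts in the DOX-negative and 0.295% ± 0.00198 in the DOX-positive libraries (SD, n = 3). Summed CPM, in which library sizes are evened out by edgeR's TMM factors, were 3029, 3028 and 2903 in DOX-negative replicates 1 to 3 and 2897, 3055 and 2947 in the DOX-positive ones. The groups overlapped, with the lowest and the highest sum both among the DOX-positive libraries. Summed TPM, the deposited length-scaled values, were 1339 ± 210 and 1357 ± 242 (SD, n = 3), and overlapped as well.

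Before the single genes, the libraries and the knockdown were checked. Total counts ranged from 47620696 to 74061121 per library. MUC1, the target of the shRNA, was 79.6 to 90.2 CPM in the DOX-negative and 29.9 to 37.2 CPM in the DOX-positive libraries, a log2 fold change of -1.32 ± 0.096 (SE; edgeR adjusted p = 0.000173). All 9 neuroendocrine markers looked at, CHGA and INSM1 among them, had a mean of at least 1 TPM, with summed levels of 297 to 421 TPM in the DOX-negative and 273 to 439 in the DOX-positive libraries. None of 6 luminal prostate markers and none of 5 immune markers had a mean that high, with KLK3 and CD3E listed at 0, and 1 of 6 fibroblast markers did. DOX-positive replicate 2 stood apart in GC content, which is taken up after the single genes. Bulk RNA cannot tell less RNA per cell from fewer cells of a kind.

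MRPL42, a large-subunit protein of mitochondria with no bacterial counterpart, had the largest difference of the family. It was at 46.1, 47.2 and 56.5 CPM in DOX-negative replicates 1 to 3 and at 38.5, 31.5 and 41.9 CPM in DOX-positive replicates 1 to 3. Every DOX-positive library was below every DOX-negative one, and the extremes were DOX-negative replicate 3 and DOX-positive replicate 2. The log2 fold change was -0.42 ± 0.11 (SE), or 25.2% lower, with an edgeR adjusted p of 0.0555. Without DOX-positive replicate 2 it was -0.31 (edgeR adjusted p = 0.0795). With offsets that take out trends with GC content and length it was -0.31 (edgeR adjusted p = 0.011). The length and GC content used there were those of the longest GENCODE transcript, 15582 bases and 38.4%. This need not be the transcript counted for MRPL42. Its gene spans chr12:93467514-93516214, and RefSeq lists 6 pseudogenes of it, of which MRPL42P5 was the one in the table, with 0 to 5 counts per library, so how reads shared with the others were counted is uncertain.

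MRPS25, a small-subunit protein particular to mitochondria, was at 61.1, 60.1 and 68.0 CPM without DOX and at 50.4, 53.5 and 51.7 CPM with it. The groups were apart, and the log2 fold change was -0.28 ± 0.077 (SE; edgeR adjusted p = 0.058). The gene, at chr3:15042251-15065315, overlaps NR2C2, and since the strand setting of the counting was not given, reads of the overlap could have been assigned to either or to neither. MRPL17, which has a bacterial homologue in the large subunit near the exit of the peptide tunnel, was at 38.3, 37.7 and 36.3 CPM without DOX and at 29.9, 32.7 and 31.4 CPM with it. The groups were again apart, and the log2 fold change was -0.26 ± 0.078 (SE; edgeR adjusted p = 0.0808). MRPL17 lies at chr11:6680385-6683340, and RefSeq lists no overlapping gene and 0 pseudogenes for it.

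Leaving out DOX-positive replicate 2 put MRPS25 and MRPL17 past the threshold, with log2 fold changes of -0.30 and -0.29 and edgeR adjusted p values of 0.0385 and 0.0395, where 1.88% of all genes were called lower. The GC and length offsets, under which 5.46% of all genes were called lower, gave -0.28 (adjusted p = 0.0147) and -0.27 (adjusted p = 0.0125), and they also called MRPL28 at -0.23 (adjusted p = 0.0334), a gene picked out here after its values were seen. Without the offsets MRPL28 was at -0.16 (edgeR adjusted p = 0.405), and its adjusted p in DESeq2 was 0.422. In DESeq2 the adjusted p values were 0.0107 for MRPL42, 0.0175 for MRPS25 and 0.036 for MRPL17. These are differences of 16.3% to 25.2% in the edgeR fit, and their calls turned on the fit used. MRPS14, also named after its values were seen, was the only other member with an interval below 0, with a log2 fold change of -0.21 ± 0.079 (SE; edgeR adjusted p = 0.16).

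On the other side, MRPL52, a mitochondria-specific protein of the large subunit, was at 21.8, 20.4 and 18.9 CPM in the DOX-negative and at 22.5, 26.2 and 23.0 CPM in the DOX-positive libraries. It and MRPS11 were the 2 genes whose DOX-positive libraries all lay above the DOX-negative ones. Its log2 fold change was 0.23 ± 0.094 (SE), with an edgeR adjusted p of 0.184. MRPL46 and MRPS11, the next largest, are neighbours whose RefSeq starts lie 320 bases apart on opposite strands of chromosome 15, at 88467388 and 88467708, the only such pair of members within 1000 bases, and their stretches printed above lie between those starts. MRPL46 is a large-subunit protein and was at 9.12, 8.42 and 7.18 CPM without DOX and 8.64, 10.3 and 9.67 CPM with it. MRPS11, a small-subunit protein with a bacterial homologue, was at 23.8, 24.5 and 24.2 CPM and at 24.6, 32.6 and 25.0 CPM. The log2 fold changes were 0.21 (edgeR adjusted p = 0.336) and 0.18 (adjusted p = 0.378), and MRPS11 without DOX-positive replicate 2 was at 0.04, while MRPL46 without DOX-negative replicate 3 was at 0.11. The difference of MRPS11 thus rested on 1 library, with DOX-positive replicates 1 and 3 just above the highest DOX-negative one.

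**Figure D2:**
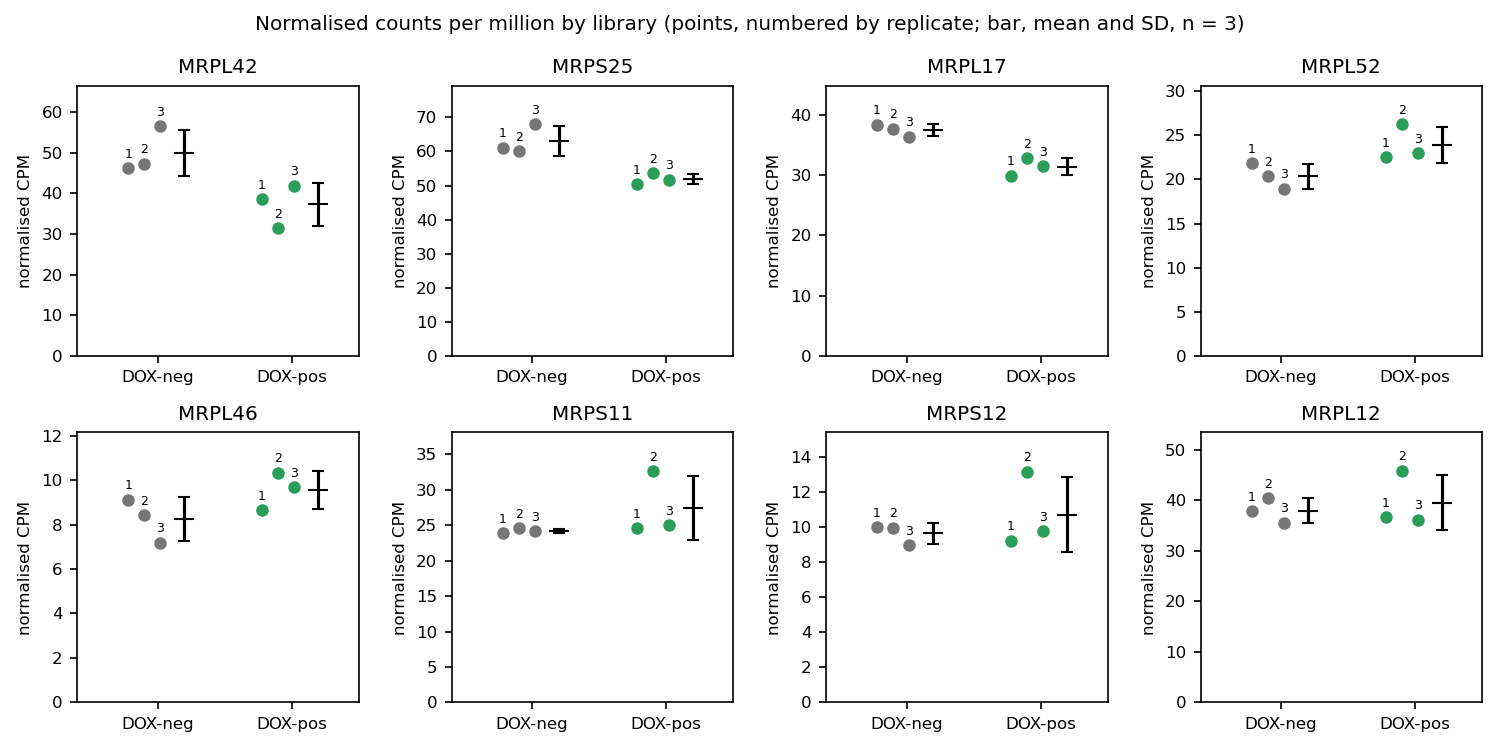
Normalised CPM (vertical axes, from 0) of 8 genes in each library, with points numbered by replicate and bars for the mean and SD (n = 3). MRPL42, MRPS25 and MRPL17 have all DOX-positive points below the DOX-negative ones, whereas the higher means of MRPS11, MRPS12 and MRPL12 come with DOX-positive replicate 2.

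Members with well-known roles gave values close to no change. MRPS12, the protein of the decoding centre whose bacterial homologue is the seat of streptomycin resistance, was at 10.0, 9.99 and 8.99 CPM without DOX and 9.25, 13.2 and 9.78 CPM with it. MRPL12, the stalk protein that recruits translation factors, was at 37.9, 40.4 and 35.6 CPM and at 36.6, 45.9 and 36.2 CPM. In both, DOX-positive replicate 2 was the highest library and the other DOX-positive libraries overlapped the controls, and their log2 fold changes of 0.15 (edgeR adjusted p = 0.573) and 0.06 (adjusted p = 0.797) became -0.02 and -0.06 without that library. MRPS7, an early-binding protein of the small-subunit head, was at 38.7 to 40.8 CPM without DOX and at 36.6 to 38.7 CPM with it. Its log2 fold change was -0.08 (edgeR adjusted p = 0.578).

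The 3 paralogs of bacterial protein S18 are placed in different parts of the ribosome, MRPS18B and MRPS18C in the small subunit and MRPS18A in the large one. MRPS18B was at 101 to 105 CPM without DOX and at 99.8 to 107 CPM with it, and its log2 fold change of 0.0029 (edgeR adjusted p = 0.987) took either sign across the fits tried. MRPS18A was at 30.3 to 33.5 and 29.97 to 37.2 CPM, with a log2 fold change of 0.06 (adjusted p = 0.759) that turned to -0.02 without DOX-positive replicate 2. MRPS18C was at 12.4 to 14.5 and 13.7 to 15.4 CPM, and its log2 fold change was 0.09 (adjusted p = 0.621). The ranges of the groups overlapped for all 3.

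By subunit, 9 of the 25 small-subunit genes tested had positive and 16 negative fold changes, with a median log2 fold change of -0.02, and of the 51 large-subunit genes 28 were positive and 23 negative, with a median of 0.01. None was called in either, as in the 77 as a whole. MRPS30 and MRPS18A carry small-subunit symbols but are large-subunit proteins, and were counted there. The 30 large-subunit genes with bacterial homologues had a median of -0.02 and the 21 specific to mitochondria or divergent one of 0.02, with 13 and 15 positive. In the small subunit the medians were -0.0032 for 15 genes with bacterial homologues, 7 of them positive, and -0.04 for 10 specific or divergent genes, 2 of them positive. The ratio of summed large-subunit to summed small-subunit CPM was 1.67, 1.67 and 1.68 in the DOX-negative and 1.71, 1.71 and 1.67 in the DOX-positive libraries. These ranges overlapped, and 3 libraries against 3 are too few to decide whether the ratio differed. MRPS36, now known as KGD4 and a part of the oxoglutarate dehydrogenase complex rather than of the ribosome core, was at 12.1 to 13.5 CPM without DOX and 12.2 to 14.6 CPM with it, a log2 fold change of 0.05 (edgeR adjusted p = 0.829).

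The members were most widely spread in DOX-positive replicate 2. The deviation of each gene's log2 CPM from its own mean over the libraries had a median over the 77 genes between -0.055, in DOX-negative replicate 3, and 0.036, in DOX-positive replicate 2. The SD of these deviations was 0.049 to 0.11 in the other 5 libraries and 0.17 in DOX-positive replicate 2, so that this library differed in how the members were spread and hardly in their centre. It held the highest value of 30 of the 77 genes and the lowest of 15. DOX-negative replicate 3, the library of fewest counts, held the lowest value of 30 and the highest of 6. Across the 77 genes the deviation in DOX-positive replicate 2 went with the GC content of the gene model (Pearson r = 0.75). In DOX-positive replicates 1 and 3 the correlation was negative (-0.37 and -0.58). In the DOX-negative libraries it was -0.03, -0.26 and -0.20. The deviations of a gene from its own mean cancel over the 6 libraries. An upward slope in DOX-positive replicate 2 therefore has to be offset by downward slopes among the other libraries. The negative correlations thus cannot be read as separate traits of the libraries that show them. The genes of a library share its preparation and depth, and these correlations are a description across genes.

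The 26 members of highest GC content, from 52.0% up, were at a median deviation of 0.19 on the log2 scale in DOX-positive replicate 2, and the 26 of lowest GC content, up to 43.9%, at -0.11. GC-rich members include MRPL41 (72.0%), MRPL4 (64.9%), MRPL12 (64.6%) and MRPL38 (64.6%). MRPL41 was at 22.6 to 25.1 CPM in the 5 other libraries and at 32.6 CPM in this one, and MRPL13, which has the lowest GC content at 33.5%, was at 76.2 to 82.9 CPM in the others and at 63.2 CPM here. The same trend ran through all genes with a GC value (r = 0.54 in this library and -0.22 to 0.070 in the others). The fold changes of the 77 members correlated with GC content at r = 0.25, at -0.28 without DOX-positive replicate 2 and at -0.12 with the offsets. The library also had the highest share of counts from RN7SK, an abundant small nuclear RNA, at 7.79% against 5.83% to 6.85% in the others. The part of library composition in the fold changes of single members was not tested beyond these fits.

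**Figure D3:**
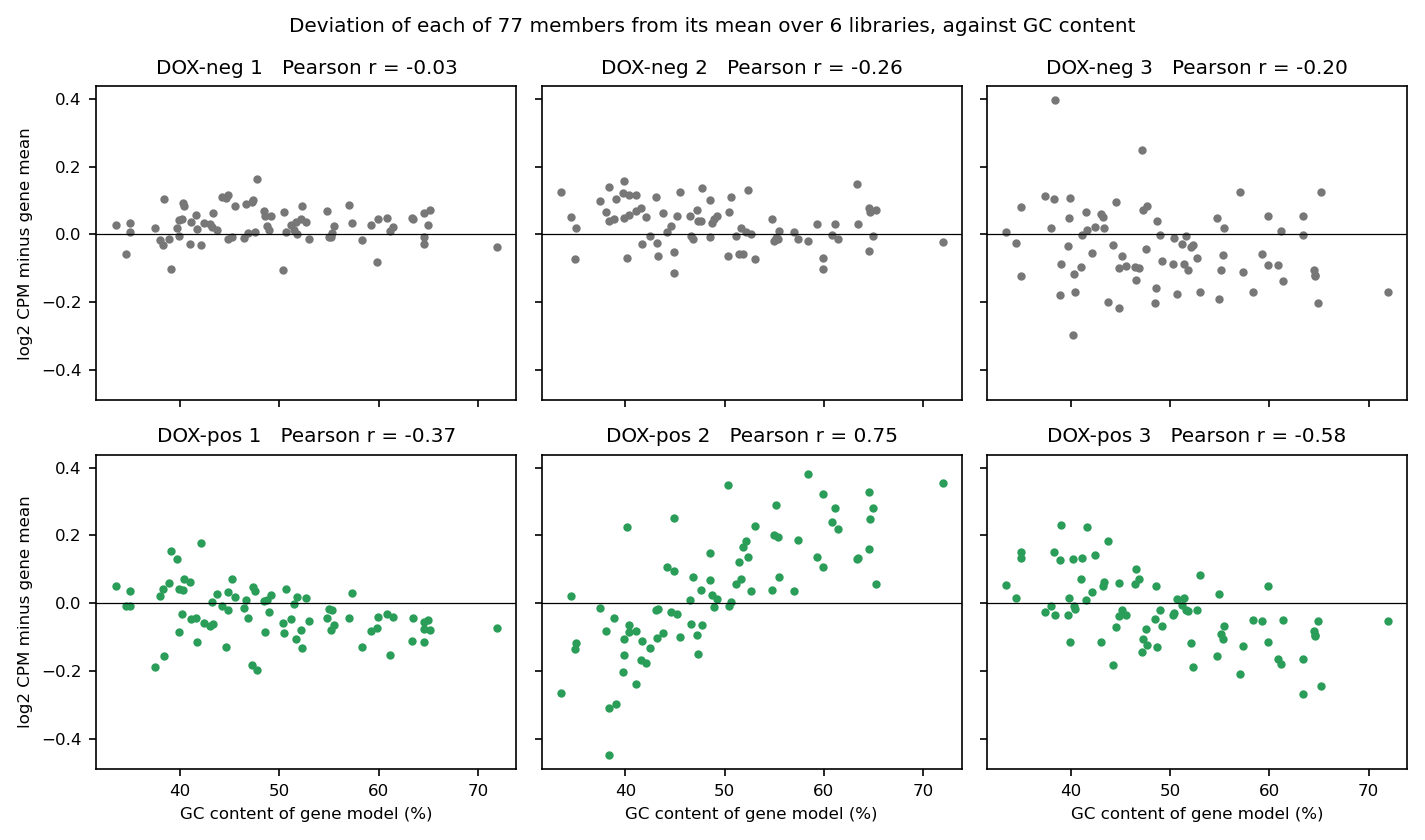
Log2 CPM of each of the 77 genes minus its mean over the 6 libraries (vertical axes) against the GC content of its gene model in percent (horizontal axes), 1 panel per library with its Pearson r. The points tilt upward in DOX-positive replicate 2 (r = 0.75) and downward in DOX-positive replicates 1 and 3 (r = -0.37 and -0.58). The values of a gene cancel over the 6 libraries, so the upward tilt has to be offset by downward tilts among the others.

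The other genes of mitochondrial translation were then read in the same way, from lists written from general knowledge, and none had a called gene in edgeR or, apart from 1 translation factor, in DESeq2. Of 5 mitoribosomal proteins that carry other symbols, 3 were positive and 2 negative (median log2 fold change 0.06). Of 28 genes for ribosome assembly and modification of its RNA, 9 were positive and 19 negative (median -0.04), from TRMT61B, an RNA methyltransferase, at -0.21 (edgeR adjusted p = 0.24) to METTL17, an assembly factor, at 0.24 (adjusted p = 0.157), both named after their values were seen. Of 20 genes that charge mitochondrial tRNAs, 6 were positive and 14 negative (median -0.07). All DOX-positive libraries lay below the DOX-negative ones in 6 of the 20, beside 13.3% of all genes. They lay above in 1 of the 20, beside 14.8% of all genes. Both directions together made 7 of 20, beside 28.1% of all genes. At an unadjusted p under 0.05 in edgeR there were 0 of these 20, 1 of the 28 and 0 of the 5.

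Of 17 mitochondrial translation factors 16 were in the table and tested, with 8 positive and 8 negative and a median of 0.0024. GFM2, a factor that takes the ribosome apart for another round, was the lowest, at 19.6 ± 1.52 CPM without DOX and 15.3 ± 1.98 CPM with it (SD, n = 3). It was singled out after its values were seen. Its log2 fold change of -0.35 ± 0.11 (SE) had an edgeR adjusted p of 0.0807, and one of 0.0373 in DESeq2. TUFM, the elongation factor that brings in charged tRNA, was at 89.5 ± 2.80 and 87.9 ± 9.62 CPM (SD, n = 3; edgeR adjusted p = 0.898). The cytosolic ribosomal proteins, 77 genes, had a median of 0.0086 and a range of -0.40 to 0.24, with 42 positive and none called, and 2 at an unadjusted p under 0.05. Their centre, like that of the mitochondrial family, lay close to that of all genes tested.

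**Figure D4:**
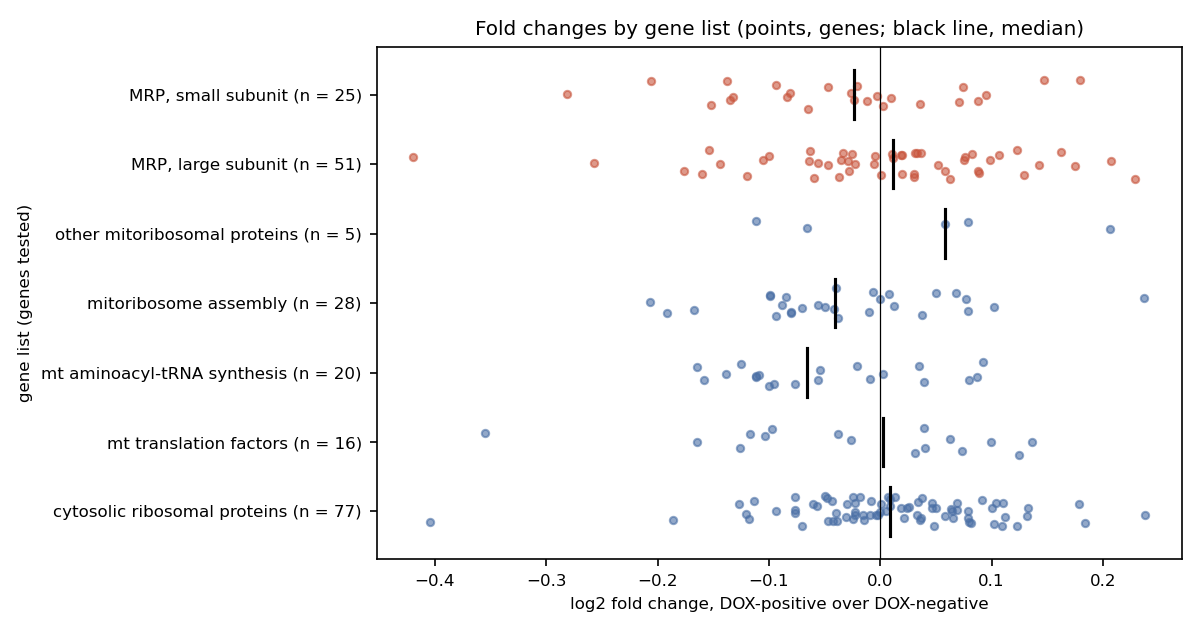
Log2 fold change of DOX-positive over DOX-negative (horizontal axis) for the tested genes of each list (rows; vertical position within a row is arbitrary), with a black line at the median. The medians lie between -0.07 for the genes of mitochondrial aminoacyl-tRNA synthesis and 0.06 for the 5 other mitoribosomal proteins, and no gene plotted was called.

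In level, the members spanned a 26.9-fold range of mean TPM, apart from MRPS24, although they make up a particle with nearly fixed proportions. TPM divide by gene lengths that were not given, so the order of genes depends on those. The median was 14.6 TPM over the 78 genes, 11.97 for the small and 15.2 for the large subunit, and 203 for the cytosolic ribosomal proteins. The highest were MRPS28 at 71.9 ± 11.4 TPM, MRPL51 at 59.6 ± 9.31 TPM and MRPS16 at 47.6 ± 7.12 TPM (SD over 6 libraries). RefSeq lists a gene that overlaps MRPS28, TPD52-MRPS28, and how reads that fit both were counted was not given. MRPS28 was above MRPL51 in 6 of 6 libraries, by 7.55 to 17.7 TPM, and MRPL51 above MRPS16 in 6 of 6, so the SDs hold a scale that the genes of a library share. The lowest after MRPS24 were MRPS11 at 2.67 ± 0.341 TPM and MRPS36 at 2.84 ± 0.570 TPM, of which MRPS36 was the higher in 5 of 6 libraries, with differences of -0.663 to 0.507 TPM. The order hardly moved with DOX, with no gene changing its rank by more than 7 places between the means of the groups.

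The genes of highest mean TPM were also compared between the groups. MRPS16, with the most counts, was at 221, 219 and 206 CPM without DOX and 214, 233 and 232 CPM with it, a log2 fold change of 0.07 ± 0.071 (SE; edgeR adjusted p = 0.62). MRPS28 was at 71.2, 75.3 and 72.6 CPM and at 66.5, 68.6 and 64.4 CPM, the DOX-positive libraries all lower, at -0.14 ± 0.070 (SE; adjusted p = 0.297). MRPL51, a large-subunit protein specific to mitochondria, was at 54.8, 56.0 and 54.3 CPM and at 53.4, 53.9 and 53.6 CPM, also without overlap, yet its log2 fold change was only -0.04 ± 0.070 (SE; adjusted p = 0.81).

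MRPS24 was the one member left out of the tests, with 2 to 9 counts per library. It encodes a small-subunit protein with a bacterial homologue, and its deposited levels were 0.152892, 0.0371779 and 0.0932572 TPM without DOX and 0.0514466, 0.0939022 and 0.0424891 TPM with it. Its gene, at chr7:43866558-43869517, overlaps the readthrough gene URGCP-MRPS24, which had 0 counts in every library. How reads that fit both were counted was not given, so this low value cannot be read as low expression of MRPS24. Of the pseudogenes that share a member's name, MRPS31P5 had 349 to 561 and MRPL45P2 182 to 280 counts per library.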

How the data were processed

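RNA-seq of 3 DOX-negative and 3 DOX-positive H660 cultures was analysed from the tables of the authors. Per the labels, total RNA was made into stranded mRNA libraries. The tables deposited were raw gene counts and TPM scaled to the same total in every library. The submitters' processing notes name STAR, DESeq2 and GRCh38 (hg38), and the annotation and the strand setting of the counting were not given in the sources used here. The counts were tested with edgeR 4.0.16 in R 4.3.3 (filterByExpr, TMM, glmQLFit with robust estimation, glmQLFTest, Benjamini-Hochberg over 17026 genes), with no covariate, with calls made below an adjusted p of 0.05. CPM are TMM-scaled, and log2 CPM use a prior count of 2. Alternatives used DESeq2 1.42.0 and limma 3.58.1, with TPM on a log2 scale after adding 1 or 0.1. Locations, promoters and pseudogenes came from RefSeq (GRCh38.p14), where all 78 genes matched, 1 of them by an older symbol and 70 with a promoter. GC content and the gene length of the offsets came from the longest GENCODE transcript of each symbol, for 93.7% of the tested genes. Simulated counts with known changes were used to check the tests.

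Genes were named as the 3 highest and 3 lowest fold changes, the 3 highest and 3 lowest mean TPM, the MRPS18 paralogs, MRPS12, MRPL12 and MRPS7. Members and lists were chosen with earlier results of these data known. Replicate numbers came from the sample titles. No pair of libraries of 1 group agreed within sampling noise, and p-values measure the spread between these cultures, which may be technical.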

Additional observations from a re-analysis of the deposited data

How the results depend on the processing

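The count of members called moved from 0 in edgeR to 3 in DESeq2 (8.43% of all genes called there), 4 with GC and length offsets (12.4%), 2 with protein-coding genes only (5.49%), and 1 each with no count filter (4.99%), with upper-quartile scaling (4.78%) and with a replicate block (5.86%), all lower with DOX. Leaving out each library gave 0 to 2 (MRPS25 and MRPL17 without DOX-positive replicate 2, 4.80% of all genes; MRPL42 without DOX-positive replicate 3, 2.17%), and without DOX-negative replicates 2 and 3 only 0.737% and 0.337% of all genes were called, so that 0 members there says little. The block called MRPL42 (-0.42, adjusted p = 0.0072), but replicate numbers did not pair the samples: their deviations correlated at -0.54, 0.02 and -0.10. With RLE or no scaling, a mean of at least 50 counts, and limma-voom, which called 3.94% to 5.12% of all genes, 0 members were called. The 3 TPM fits called 0% to 0.299% of all genes and so could say little of the members. MRPL42 passed in 7 of the 19 alternatives, MRPS25 in 4 and MRPL17 in 3, and the calls of single genes thus depended on the fit, for reasons that were not tested. The members' median stayed between -0.03 and 0.02. MUC1 fell short of the threshold only with log2(TPM + 1) and no filter (-1.22, adjusted p = 0.286). Signs turned for values near 0: MRPL12 with offsets (-0.0066), and MRPS18B in DESeq2 (-0.0016), with offsets (-0.0272), with RLE scaling (-0.0037), with at least 50 counts (-0.0037), with no scaling factors (-0.0090) and with protein-coding genes only (-0.0153). Leaving out libraries also turned MRPL12 (-0.0582 to 0.118), MRPS12 (-0.0213 to 0.245), MRPS18A (-0.0155 to 0.137), MRPS18B (-0.0229 to 0.0274) and MRPS36 (-0.0182 to 0.116). GFM2 was called in DESeq2, with offsets and with the block. Protein levels, mitochondrial translation itself and the ribosomal RNAs of the organelle were not analysed here.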
